A study of Mus musculus with 8 samples.

Results

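Spheroids of the mouse mammary line EpH4-AS were compared with spheroids of the line EpH4 after both had been exposed to PM2.5, the fraction of airborne particulate matter that is small enough to reach deep into the lung. The comparison held 4 of the 8 libraries of the study, 2 from each line, and it ran across all expressed genes. EpH4 is entered in the labels as wildtype and EpH4-AS as AS-transformed, without the abbreviation being spelled out, and both are labelled as epithelial cells of the mammary gland grown in 3D. The other 4 libraries came from untreated spheroids of the same lines, again 2 from each, and they served here to ask whether the gap between the lines differed with exposure. Each genotype was represented by 1 line, and the labels used here give neither the dose and time of exposure nor the origin of paired libraries, which may stem from 1 culture or from 2. The p values therefore rest on a spread that could be technical only. Polyadenylated RNA was sequenced with a stranded kit. The labels used here tell no batches apart, and whether the lines were processed alike could not be told.

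Transformed epithelial cells commonly lose parts of the epithelial programme, divide with fewer restraints and secrete a changed matrix. Particles can bring metals and organic compounds into a cell, where NRF2 controls antioxidant genes, the aryl hydrocarbon receptor controls enzymes that oxidise aromatic compounds, and NF-kB controls cytokine genes. Proteins made for secretion fold in the endoplasmic reticulum with the help of chaperones, and when folding falls behind, the unfolded protein response raises those chaperones through the sensors ATF6, IRE1 and PERK.

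Total counts were 26457809 and 24608176 in exposed EpH4 and 17131588 and 18334052 in exposed EpH4-AS. Levels are given as CPM, a gene's counts relative to the library's total after TMM scaling, library by library in the order of the replicate numbers, and differences as log2 fold changes of EpH4-AS over EpH4 with a standard error and an adjusted p from the edgeR quasi-likelihood test. A gene is called where that adjusted p is under 0.05, and "higher" and "lower" below mean called in EpH4-AS against EpH4, both with PM2.5, unless said otherwise. Of 25413 genes in the table, 13716 had enough counts to be tested. Rankings of genes below pass over predicted gene models and pseudogenes, and those by abundance also pass over the mitochondrial genome. The largest rises and falls were ranked among called genes without overlap between the lines. These genes also had to reach 20 CPM in the higher group mean.

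The 2 lines differed in library-wide measures as well as in single genes. Mitochondrially encoded transcripts took 4.63 ± 0.563% of counts in exposed EpH4 and 0.286 ± 0.0229% in exposed EpH4-AS (SD, n = 2). Of all reads assigned to gene bodies, 11.96 ± 0.741% in EpH4 and 3.51 ± 0.118% in EpH4-AS fell outside exons (SD, n = 2). Across the 13163 genes with an annotated coding share, the median log2 difference went from -0.50 in the fifth of genes with the smallest coding part of the transcript to 0.36 in the fifth with the largest. Of 492 tested genes annotated only as TEC, a class of transcripts still to be experimentally examined, 455 were lower in EpH4-AS, with a median of -4.11. Of 44 tested genes named as retrotransposed or pseudogene copies of another gene, 34 were higher and 8 lower, with a median of 4.28, while the median of the 32 different parent genes tested was -0.34. For coding share, a refit with TMM applied within 10 classes of it called 6835 genes over 2-fold, beside 7395 in the main fit. Apart from that refit, the part of these differences in the results below was not tested. Values of such copies are reported as uncertain, since reads of a near-identical parent can be assigned to them. Values of the parents are uncertain for the same reason.

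The labelled cell type was first checked against defining markers. The counts of Cdh1, which encodes E-cadherin, were 2 and 1 in exposed EpH4 and 1 and 1 in exposed EpH4-AS. Krt8, a keratin of simple epithelia, had 7 and 12 counts in EpH4 and 0 and 0 in EpH4-AS, and its partner Krt18 had 2 and 0 against 0 and 0. Krt19 and Cldn4 were at 0 in all 4 exposed libraries. Epcam, an epithelial surface protein, was at 0 in both EpH4 libraries and at 0.467 and 0.543 CPM in EpH4-AS, at least 8.53-fold higher when the empty group is set to 3 counts. Vim, the intermediate filament protein of mesenchymal cells, stood at 2249 and 2390.3 CPM in EpH4 and 3863 and 4707 CPM in EpH4-AS. The defining epithelial markers were thus at or near 0 in both lines, and a mesenchymal one was abundant in both. The Y-linked genes Eif2s3y and Uty had no counts in exposed EpH4, against 0.992 and 1.303 CPM and 0.875 and 0.760 CPM in EpH4-AS, at least 19.4-fold and 13.7-fold higher. Ddx3y and Kdm5d, also Y-linked, had too few counts to be tested. Ddx3y had 0 and 0 counts in exposed EpH4 and 3 and 4 in exposed EpH4-AS, and Kdm5d 1 and 0 against 7 and 1. Xist had no entry. These levels are low, and whether reads of similar genes were assigned to these Y-linked genes was not tested. Of 10 endothelial markers 1 had enough counts to be tested, Flt1, which stayed between 0.642 and 2.096 CPM in the 4 libraries. The 5 tested of 10 muscle markers summed to between 5.19 and 20.4 CPM. Of 7 tested neural and Schwann cell markers 4 were lower and 3 higher (median -1.900). They summed to 342 and 319 CPM in EpH4 and 938 and 895 CPM in EpH4-AS, the higher sum coming from Ncam1, a neural adhesion molecule (173 against 899 CPM), while Nes, the intermediate filament nestin, was lower (135 against 2.97 CPM), and 1 and 3 of the 10 were at 0.

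With PM2.5, 12211 of 13716 genes differed between the lines (89.0% of genes tested), 5970 higher and 6241 lower in EpH4-AS (43.5% and 45.5%). Of these, 7395 differed by more than 2-fold (53.9%), 3206 higher and 4189 lower (23.4% and 30.5%), and 2457 by more than 16-fold. The median log2 difference over all tested genes was -0.04, and the median size of the difference was 1.13. The 2 libraries of one line lay wholly above those of the other for 94.3% of genes. With so high a share called, the counts of list members below are to be read beside these percentages. In exposed EpH4, 347 tested genes had no count, and in exposed EpH4-AS 277 had none. Of those silent in EpH4, 95 reached 10 CPM or more in EpH4-AS, whereas 4 of those silent in EpH4-AS reached 10 CPM in EpH4. The 2-fold count was 4863 by limma-trend on log2(RPKM + 1), a scale that understates the change of low genes.

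**Figure D1:**
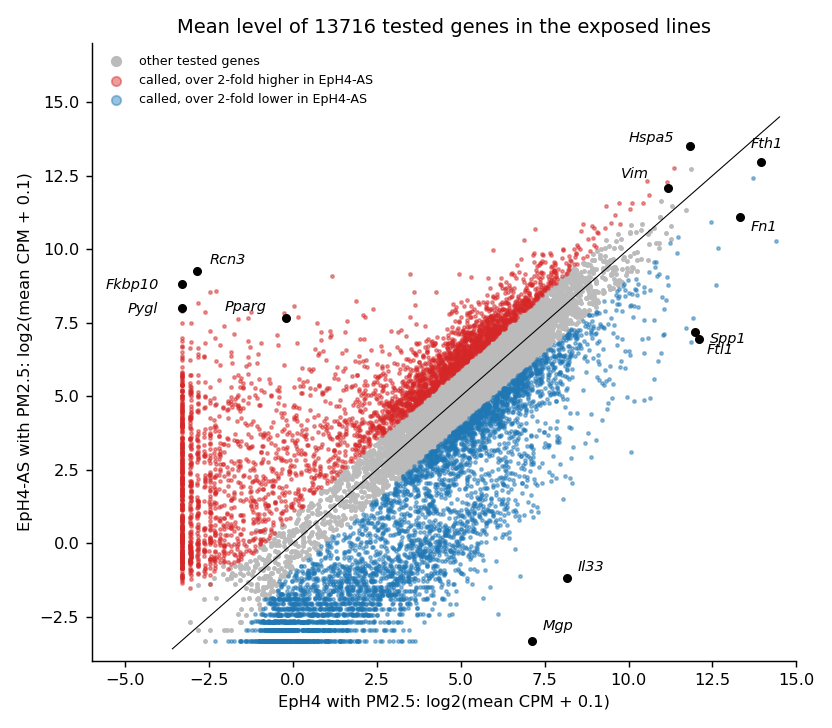
Mean level of each of 13716 tested genes in EpH4 with PM2.5 (x axis) and EpH4-AS with PM2.5 (y axis), both as log2 of the mean CPM of 2 libraries plus 0.1; red and blue points are called and over 2-fold, and the line marks equal levels. The 3206 red and 4189 blue points lie on both sides of the line, Fkbp10 and Pygl stand at the left edge with no counts in EpH4, and Mgp at the lower edge with none in EpH4-AS.

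Genes of protein folding in the endoplasmic reticulum held the largest gains in abundance. By the difference in mean CPM, the 6 largest gains outside the mitochondrial genome were Hspa5, Hsp90b1, Calr, Pkm, P4hb and Hyou1, and all but Pkm encode proteins of the endoplasmic reticulum. Hspa5 (ENSMUSG00000026864, chromosome 2, 34661982 to 34667559, GRCm39), which encodes BiP, the Hsp70 chaperone that also holds the stress sensors inactive, was at 3975 and 3342 CPM in EpH4 and 12498 and 10763 CPM in EpH4-AS (log2 1.67 ± 0.09, adjusted p = 2.46e-10). Per length it was, of the genes ranked, the second most abundant of exposed EpH4-AS outside the mitochondrial genome, at 2867 RPKM against 805 in EpH4. Hsp90b1 (ENSMUSG00000020048, chromosome 10, 86526073 to 86541373, GRCm39), the Hsp90 of this compartment, was at 2794 and 2394 CPM in EpH4 and 7269 and 6503 CPM in EpH4-AS (log2 1.41 ± 0.08, adjusted p = 3.41e-10). In both genes each EpH4-AS library stood above each EpH4 library, and the spread within a line was small beside the gap. Calr, the calcium-binding lectin chaperone calreticulin, was at 1566 and 1449.9 CPM in EpH4 and 5243 and 4907 CPM in EpH4-AS (log2 1.75 ± 0.07, adjusted p = 3.30e-12). Hyou1, a large Hsp70-like exchange factor for BiP, was at 887 and 778 CPM in EpH4 and 3227 and 2830.3 CPM in EpH4-AS (log2 1.86 ± 0.08, adjusted p = 6.25e-12). P4hb, Pdia3, Pdia4 and Pdia6 encode disulfide isomerases, and their log2 differences were 1.14, 1.31, 1.43 and 1.58. Pkm, a glycolytic enzyme, averaged 3735 against 6740.1 CPM.

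Of the 22 members of the unfolded protein response list, 12 were higher and 7 lower, with a median of 0.21 beside -0.04 for all genes. Of the 12, all but Edem1, a lectin of the degradation route, are chaperones, isomerases or their partners. The call of Edem1 (log2 0.14) was lost without exposed EpH4 replicate 2 (adjusted p = 0.37) and without exposed EpH4-AS replicate 1 (adjusted p = 0.226). Lower members included sensors and part of the degradation machinery. Atf6, a sensor that becomes a transcription factor, averaged 211 against 184 CPM (log2 -0.20, but 0.17 when TMM was applied within classes of coding share). Ern1, which encodes the sensor IRE1, averaged 143 against 105 CPM (-0.45), and Xbp1, the transcription factor spliced by IRE1, 183 against 108 CPM (-0.76). Dnajb9, a co-chaperone of BiP, was lower at 71.1 against 34.3 CPM (-1.05), and Syvn1 and Sel1l, which form the ubiquitin ligase of misfolded proteins, had log2 differences of -0.55 and -0.28. Ero1a, the oxidase that recharges disulfide isomerases, was among the 6 largest losses by CPM, at 7058 and 6041 CPM in EpH4 and 1097 and 1001 CPM in EpH4-AS (log2 -2.64 ± 0.09, adjusted p = 8.99e-13). Chaperone and isomerase genes were thus mostly higher, while this oxidase and the genes of IRE1 and its target were lower.

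The promoters of 4 of these chaperone and isomerase genes are shown. All 4 were called higher and hold a sequence word that was defined without the values. RefSeq promoter windows, 250 bases before to 50 after the gene start, were searched on both strands for the ER stress element, CCAAT and CCACG with 9 bases of any kind between them. It was present in 39 of 32851 windows (0.119%) and in 8 of the 19 windows of list members that had one (42.1%). The list was made of genes known for this response, so its share is a description and was not tested. The 4 windows below come from GRCm38.p6, at chr2:34771840-34772139 for Hspa5 and chr12:17266339-17266638 for Pdia6 on the plus strand, and at chr10:86705395-86705694 for Hsp90b1 and chr8:84846882-84847181 for Calr on the minus strand. Each is written along the gene's own strand, and capitals mark the element on either strand.
Hspa5: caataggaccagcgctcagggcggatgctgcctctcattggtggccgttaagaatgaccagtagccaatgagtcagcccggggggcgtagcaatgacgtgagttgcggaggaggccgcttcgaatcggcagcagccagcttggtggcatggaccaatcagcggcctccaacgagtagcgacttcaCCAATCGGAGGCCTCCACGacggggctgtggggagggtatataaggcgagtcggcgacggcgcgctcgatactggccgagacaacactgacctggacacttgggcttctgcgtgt
Hsp90b1: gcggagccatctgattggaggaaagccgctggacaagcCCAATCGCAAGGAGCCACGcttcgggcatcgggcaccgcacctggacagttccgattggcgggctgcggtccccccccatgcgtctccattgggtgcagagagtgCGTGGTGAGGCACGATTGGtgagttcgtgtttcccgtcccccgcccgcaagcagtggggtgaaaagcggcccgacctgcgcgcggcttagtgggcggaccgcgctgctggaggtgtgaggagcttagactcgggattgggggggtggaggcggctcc
Calr: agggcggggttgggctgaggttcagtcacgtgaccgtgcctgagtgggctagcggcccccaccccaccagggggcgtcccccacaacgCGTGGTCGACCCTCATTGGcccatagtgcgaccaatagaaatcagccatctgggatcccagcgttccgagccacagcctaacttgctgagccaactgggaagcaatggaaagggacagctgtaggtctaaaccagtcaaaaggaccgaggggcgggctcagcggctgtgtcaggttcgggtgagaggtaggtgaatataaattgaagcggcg
Pdia6: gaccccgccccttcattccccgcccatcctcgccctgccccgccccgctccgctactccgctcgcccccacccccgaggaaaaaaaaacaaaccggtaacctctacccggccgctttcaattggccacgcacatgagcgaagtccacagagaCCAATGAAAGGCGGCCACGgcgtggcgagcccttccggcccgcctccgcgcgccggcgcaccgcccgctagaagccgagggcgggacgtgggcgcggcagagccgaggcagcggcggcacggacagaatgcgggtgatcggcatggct
Hsp90b1 held 2 matches and the others 1. Of the 8 genes with a match, Hspa5, Calr, Hsp90b1, Canx, Pdia6 and Creld2 were higher, and Dnajc3 (-0.74) and Syvn1 (-0.55) were lower. Hyou1 and Pdia3, which were also higher, were not among the 8. A match describes letters in the window, and binding was not measured.

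**Figure D2:**
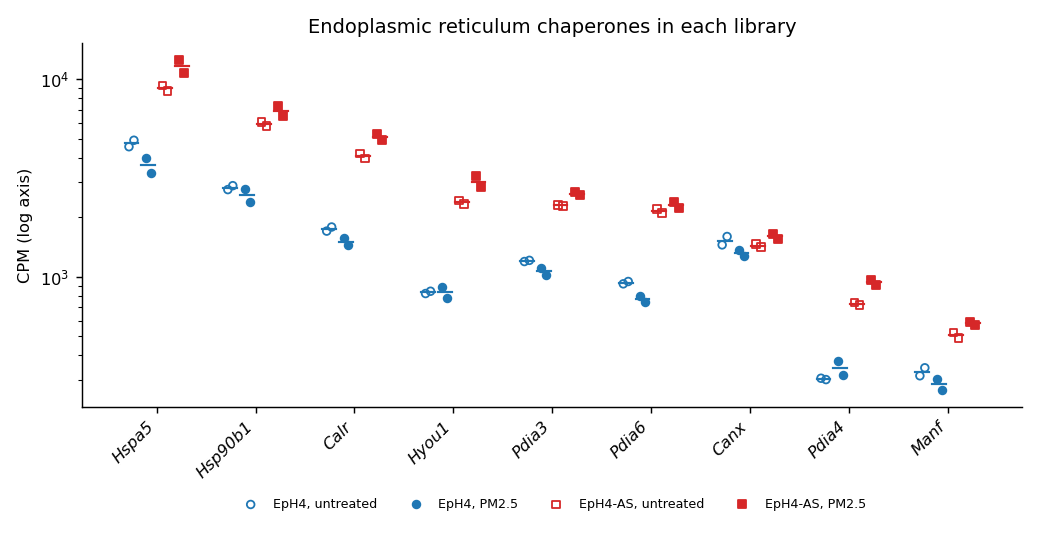
CPM on a log axis of 9 genes of protein folding in each of the 8 libraries (points) with group means (bars); blue circles are EpH4, red squares EpH4-AS, filled where exposed to PM2.5. The 2 exposed EpH4-AS libraries stand above both exposed EpH4 libraries for all 9 genes, by log2 0.28 for Canx to 1.86 for Hyou1.

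The 12 largest rises had few or no counts in EpH4. Fkbp10 (ENSMUSG00000001555, chromosome 11, 100306523 to 100315650, GRCm39), a prolyl isomerase that assists collagen folding, had no count in either EpH4 library and 469 and 432 CPM in EpH4-AS, at least 7578-fold higher. Rcn3, a calcium-binding protein of the secretory route, had 2 counts over both EpH4 libraries and 629 and 589 CPM in EpH4-AS, a ratio of 15383-fold, with an exact 95% counting interval from 4258 to 127031. Both genes were therefore abundant in one line and practically absent from the other. Pygl, which encodes the liver form of glycogen phosphorylase, had none in EpH4 and 257 and 257 CPM in EpH4-AS, at least 4329-fold higher. Eml2, which binds microtubules, and Ctsf, a lysosomal cysteine protease, were also silent in EpH4 and reached 219.8 and 251 CPM and 131 and 119 CPM in EpH4-AS. The other largest rises by the naming rule were Fam78b, Slc14a1 (a urea transporter), Ubash3b (a phosphatase of the STS family), Serinc2 and Tspan7, a tetraspanin, all at 0 in EpH4 and at least 1319- to 1976-fold higher. Aldoart2 and Eif4a3l1 also met the rule, at least 3035-fold and 1381-fold higher, and both are uncertain because they are near-identical copies of Aldoa and Eif4a3. Reads of Aldoart2 were 6.598% of the reads of the copy and Aldoa together in EpH4-AS.

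The 12 largest falls were likewise at or near 0 in EpH4-AS. Mgp (ENSMUSG00000030218, chromosome 6, 136849433 to 136852821, GRCm39), an inhibitor of tissue calcification, was at 129 and 150.1 CPM in EpH4 with no count in EpH4-AS, at least 1651-fold lower. Il33, an alarmin cytokine, was at 287 and 284 CPM in EpH4 and 0.292 and 0.380 CPM in EpH4-AS (log2 -9.700 ± 0.20, adjusted p = 4.59e-15), and Sfrp2, a secreted Wnt modulator, at 95.3 and 124 CPM in EpH4 and 0.233 and 0.489 CPM in EpH4-AS. These 3 transcripts were thus present in EpH4 at moderate levels and at or near 0 in EpH4-AS. Kcnj2, an inward rectifier potassium channel, was at 68.5 and 70.2 CPM in EpH4, and the 3 counts left in EpH4-AS gave a ratio in favour of EpH4 of 822-fold, with an exact 95% counting interval from 281 to 3986. Tnc, the matrix glycoprotein tenascin C, was at 36.5 and 43.4 CPM in EpH4 and 0.233 and 0.326 CPM in EpH4-AS (log2 -7.12 ± 0.23, adjusted p = 4.02e-13). Colec12, a scavenger receptor, Tspan11, Cacng7 and Mecom, a zinc finger transcription factor, had log2 differences of -8.17, -7.81, -7.61 and -7.43. Limch1, Trib2 and Daam2 kept 3 counts each over both EpH4-AS libraries, with ratios in favour of EpH4 of 314, 295 and 241.

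By abundance, the losses were led by Fn1, Fth1, Eef1a1, Ero1a, Spp1 and Ftl1. Fn1 (ENSMUSG00000026193, chromosome 1, 71624679 to 71692359, GRCm39), the matrix protein fibronectin, was at 10092 and 10292 CPM in EpH4 and 2304 and 2111 CPM in EpH4-AS (log2 -2.21 ± 0.07, adjusted p = 3.90e-13). Spp1, the secreted phosphoprotein osteopontin, was at 4069 and 4781 CPM in EpH4 and 134 and 111 CPM in EpH4-AS (log2 -5.18 ± 0.13, adjusted p = 2.55e-14). The ferritin light chain gene Ftl1 was at 4016 and 4138 CPM in EpH4 and 137 and 152 CPM in EpH4-AS (log2 -4.82 ± 0.08, adjusted p = 8.68e-16), whereas the heavy chain gene Fth1 was at 14445 and 17446 CPM in EpH4 and 7679 and 8285 CPM in EpH4-AS (log2 -0.998 ± 0.09, adjusted p = 5.46e-08). Of the genes ranked, the heavy chain stayed the most abundant of both lines outside the mitochondrial genome, at 8169.6 and 4576 RPKM. Eef1a1, a translation elongation factor, averaged 13358 against 5467 CPM (log2 -1.29).

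Junction genes were split between the lines, and the defining epithelial markers were near 0 in both. Of 33 genes of epithelial adhesion in the table, 18 had enough counts to be tested, 11 of them higher and 4 lower, with a median of 3.42, or 3.22 with the 1 gene silent in EpH4 set to its bound. Summed over the 18 tested members they stood at 557 and 542 CPM in EpH4 and 523 and 521 CPM in EpH4-AS. The sum was thus not higher in EpH4-AS, and the median counts scarce and abundant members alike. Dsp, the desmosomal linker desmoplakin, was at 0.724 and 0.329 CPM in EpH4 and 31.9 and 33.7 CPM in EpH4-AS (log2 5.93 ± 0.17, adjusted p = 1.16e-13), Pkp3, a plakophilin of the same plaque, at 0.724 and 0.740 CPM in EpH4 and 22.3 and 20.5 CPM in EpH4-AS, and Jup, plakoglobin, at 1.6002 and 2.18 CPM in EpH4 and 18.97 and 19.3 CPM in EpH4-AS (log2 3.34 ± 0.14, adjusted p = 8.04e-12). St14, the membrane serine protease matriptase, averaged 0.136 against 10.3 CPM. In contrast F11r, a junctional adhesion molecule, was at 82.8 and 81.95 CPM in EpH4 and 2.39 and 2.55 CPM in EpH4-AS (log2 -5.05 ± 0.09, adjusted p = 1.74e-15), and Perp, a desmosomal membrane protein and p53 target, at 63.4 and 66.4 CPM in EpH4 and 1.58 and 3.04 CPM in EpH4-AS. Pkp2, a further plakophilin, was lower too, at 23.1 and 19.1 CPM in EpH4 and 2.92 and 2.82 CPM in EpH4-AS (log2 -2.88 ± 0.14, adjusted p = 5.52e-11), and the remaining lower member was Cdh3, which encodes P-cadherin, with 1 count over both EpH4-AS libraries. Desmosomal genes thus lay on both sides. Only 4 of 16 keratins could be tested. Krt80 averaged 65.9 against 4.299 CPM and Krt14, a basal keratin, 8.59 against 0.221 CPM (log2 -3.93 and -5.22), and Krt10 was lower and Krt7 higher. Of the regulators of epithelial identity, 3 of 10 were higher and 6 lower, among them Klf5 and Gata3, which averaged 62.8 against 18.9 CPM and 59.96 against 15.6 CPM.

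Mesenchymal genes were also split, 11 of 21 higher and 10 lower, with a median of 0.28. Besides Vim, Sparc, a secreted matrix-binding protein, averaged 501 against 795 CPM (log2 0.66), Loxl1, a collagen crosslinking oxidase, 74.5 against 295 CPM (1.98), and Ccn2, a matricellular growth factor, 3.24 against 40.9 CPM (3.66). Myl9, a myosin light chain of contractile cells, had no count in EpH4 and 7.35 and 5.81 CPM in EpH4-AS, at least 110.5-fold higher. On the lower side were Fn1, Lox, another crosslinking oxidase, at 1899 and 1885 CPM in EpH4 and 68.6 and 78.1 CPM in EpH4-AS (log2 -4.69 ± 0.08, adjusted p = 5.62e-16), and Cdh2, which encodes N-cadherin, at 129.7 and 122 CPM in EpH4 and 4.32 and 4.99 CPM in EpH4-AS (log2 -4.75 ± 0.09, adjusted p = 1.29e-15). Lox and Loxl1, of the same family, thus lay on opposite sides. Of the transcription factors that drive epithelial-mesenchymal transition, Zeb1, Twist1, Twist2, Tcf4 and Snai2 were higher (log2 1.63, 1.41, 2.003, 0.40 and 1.33) and Zeb2, Snai1, Hmga2 and Prrx1 lower (-0.83, -2.53, -1.95 and -0.56), 5 and 4 of 9 tested, with Prrx1 at 0.046 and not called when TMM was applied within classes of coding share (adjusted p = 0.539).

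Fibroblast genes were lower, 12 of 16 tested members against 4 higher, with a median of -2.88. Summed over the 16 tested members they stood at 3305 and 3527 CPM in EpH4 and 828.4 and 823.2 CPM in EpH4-AS. Of the 22 list genes, 3 and 2 were at 0 in EpH4 and EpH4-AS. In bulk libraries fewer cells of a type and less RNA per cell cannot be told apart, and the part of other cells in these values was not tested. Col1a2, the alpha 2 chain of type I collagen, was at 1115 and 1174 CPM in EpH4 and 25.03 and 31.5 CPM in EpH4-AS (log2 -5.34 ± 0.10, adjusted p = 1.87e-15), while its partner Col1a1 was at 5.296 and 4.85 CPM in EpH4 and 0.0584 and 0.163 CPM in EpH4-AS. Both type I chains were lower, and the alpha 1 chain was scarce in each line. Dcn, the proteoglycan decorin, averaged 1078 against 271 CPM, Fbln2, a fibulin of elastic matrix, 322 against 9.48 CPM, and Pdgfra, a growth factor receptor of fibroblasts, 284 against 50.7 CPM. Efemp1, a fibulin, went the other way, from 1 count over both EpH4 libraries to 73.8 and 74.97 CPM in EpH4-AS, a ratio of 3762-fold, with an exact 95% counting interval from 675 to 148655.

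**Figure D3:**
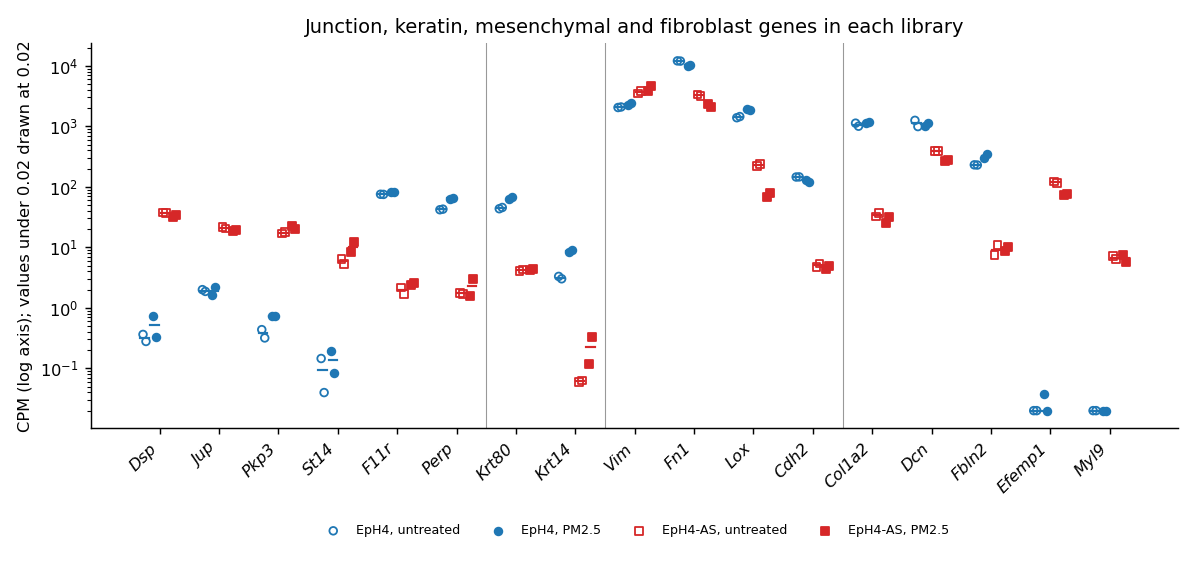
CPM on a log axis of 17 genes of junctions, keratins, mesenchyme and fibroblasts (separated by grey lines) in each library (points) with group means (bars), values under 0.02 being drawn at 0.02; blue circles are EpH4, red squares EpH4-AS, filled with PM2.5. Dsp, Jup, Pkp3 and St14 stand higher in EpH4-AS, F11r, Perp, Lox, Cdh2, Col1a2 and Fbln2 lower, and the filled and open symbols of a line lie close together for most genes.

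Collagen chains were split, 9 of 18 tested being higher and 9 lower (median 0.05). The basement membrane chains Col4a1 and Col4a2 averaged 721 against 30.2 CPM and 418 against 10.4 CPM (log2 -4.58 and -5.33), and Col18a1, which carries endostatin, 1419 against 87.6 CPM. The fibrillar type V chains Col5a1 and Col5a2 were higher, 183 against 750.02 CPM and 176 against 348 CPM, and of the type VI chains Col6a1 and Col6a2 were higher while Col6a3 was lower (585 against 17.9 CPM, log2 -5.03). Chains of laminin-511, a laminin of the same basement membranes, lay on the other side from type IV collagen. Lama5 was at 148 and 148 CPM in EpH4 and 1698 and 1563 CPM in EpH4-AS (log2 3.46 ± 0.06, adjusted p = 1.29e-15), and Lamb1 and Lamc1, its partners in the trimer laminin-511, averaged 445 against 1289 CPM and 401 against 828 CPM. All 3 chains of that trimer were thus higher in EpH4-AS. Of 21 integrin and laminin genes, 10 were higher and 10 lower. Itgb1, the shared beta 1 integrin, averaged 792 against 1245 CPM, and Itga6, a laminin receptor chain, 56.9 against 2.37 CPM (log2 -4.59).

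Matrix proteases and their inhibitors were lower in 14 of 22 genes and higher in 7. Mmp9, a gelatinase, was at 163 and 171 CPM in EpH4 and 614 and 577 CPM in EpH4-AS (log2 1.83 ± 0.06, adjusted p = 3.86e-13), and Mmp12, the macrophage elastase, had no count in EpH4 and 50.7 and 46.96 CPM in EpH4-AS, at least 822-fold higher. The other gelatinase, Mmp2, averaged 15.2 against 0.169 CPM, and Mmp14, a membrane protease that activates it, 536 against 233 CPM. Among the inhibitors Timp1 was higher, 27.3 against 281 CPM (log2 3.37), and Timp2 and Timp3 lower, 608 against 391 CPM and 32.4 against 1.02 CPM (-0.64 and -4.99), although Timp2 was at -0.037 and not called when TMM was applied within classes of coding share (adjusted p = 0.712).

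Luminal mammary genes were split, and basal and milk genes were mostly lower. Of 12 tested luminal genes (20 in the list) 6 were higher and 5 lower. Of 9 basal ones (16 in the list) 2 were higher and 6 lower, with a median of -3.79. These basal genes summed to 118 and 120 CPM in EpH4 and 22.3 and 21.4 CPM in EpH4-AS. Of 11 milk genes 4 could be tested, 1 higher and 3 lower. Their median was -2.04, or -1.73 with the 1 gene silent in EpH4-AS set to its bound. Lcn2, a secreted lipocalin of inflamed and luminal cells, was at 1685 and 1766 CPM in EpH4 and 42.5 and 52.004 CPM in EpH4-AS (log2 -5.19 ± 0.11, adjusted p = 4.83e-15). Xdh, a xanthine oxidoreductase that also coats milk fat globules, averaged 853 against 63.8 CPM, and Mfge8, a glycoprotein of the same globules, 316 against 585 CPM (log2 -3.74 and 0.89). Cited1, a transcriptional coregulator of luminal cells, was at 0 and 0.0411 CPM in EpH4 and 38.98 and 32.03 CPM in EpH4-AS, with 1 count in EpH4, a ratio of 1789-fold, with an exact 95% counting interval from 321 to 70732. Esr1, the oestrogen receptor alpha gene, was at 7.12 and 8.097 CPM in EpH4 and 10.97 and 11.6 CPM in EpH4-AS (log2 0.57 ± 0.12, adjusted p = 3.44e-04), low in both.

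Adipocyte markers were higher in 6 of 7 tested genes and lower in none, with a median of 3.09. Pparg, the nuclear receptor that drives fat cell differentiation, was at 0.495 and 1.03 CPM in EpH4 and 198 and 202 CPM in EpH4-AS (log2 8.04 ± 0.12, adjusted p = 2.74e-16). Lpl, which releases fatty acids from lipoproteins, was at 139.9 and 143 CPM in EpH4 and 904 and 894 CPM in EpH4-AS (log2 2.67 ± 0.05, adjusted p = 3.61e-15), and Cidec, a lipid droplet protein, had 1 count over both EpH4 libraries against 53.9 and 52.3 CPM, a ratio of 2684-fold, with an exact 95% counting interval from 481 to 106069. The 7 tested genes summed to 151.3 and 158.8 CPM in EpH4 and 1196 and 1185 CPM in EpH4-AS. In each line 2 of the 10 list genes were at 0. Among fat synthesis genes, 14 of 27 were higher and 10 lower, with Acly and Fasn, which make fatty acids, at 225 against 741 CPM and 138 against 452 CPM, and the desaturases Scd1 and Scd2 at 255 against 73.5 CPM and 1233 against 259 CPM.

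Homeobox genes of the Hox clusters, which record the position of a cell along the body axis, were more often higher than lower. Of 29 tested 19 were higher and 6 lower, with 3 and 2 of 9 in the Hoxa cluster and 6 and 2 of 8 in each of Hoxb and Hoxc. All 4 tested genes of the Hoxd cluster were higher: Hoxd8 and Hoxd9 had no count in EpH4 and 57.7 and 54.1 CPM and 41.3 and 40.8 CPM in EpH4-AS, at least 942-fold and 692-fold higher. Hoxc10 was at 1.07 and 1.397 CPM in EpH4 and 46.6 and 44.3 CPM in EpH4-AS (log2 5.21 ± 0.12, adjusted p = 1.71e-14). Hoxb9 and Hoxc11 lay on the other side, 54.4 against 1.51 CPM and 12.6 against 0.252 CPM on average (log2 -5.16 and -5.61).

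**Figure D4:**
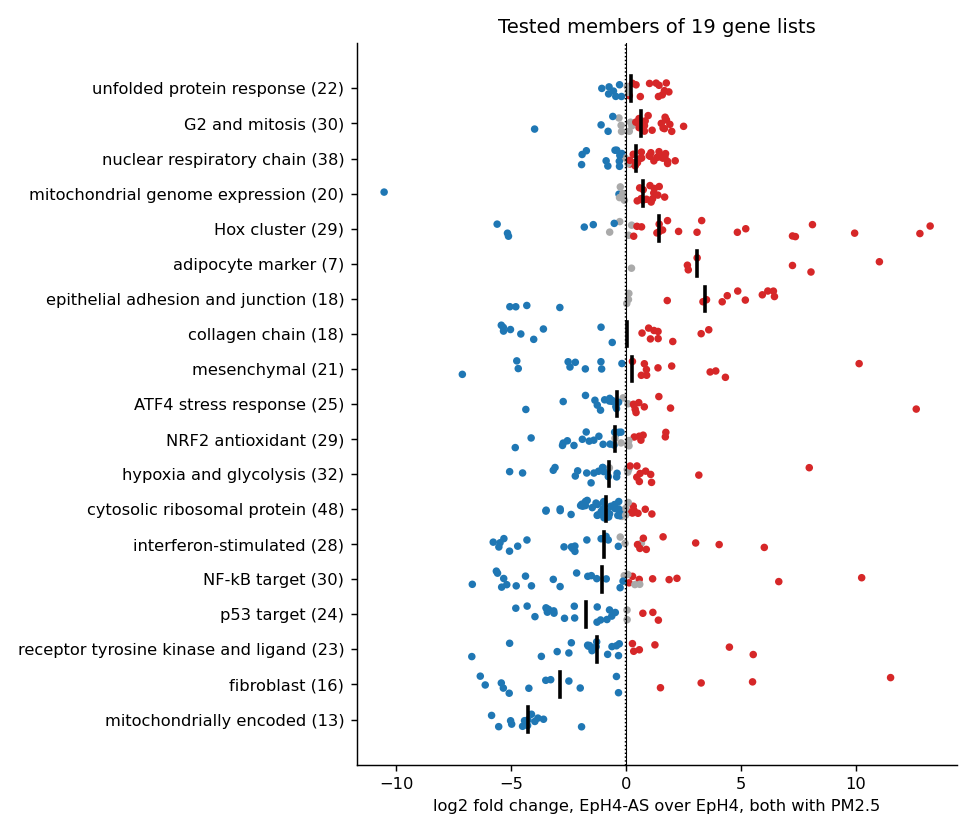
Log2 fold change of EpH4-AS over EpH4, both with PM2.5 (x axis), for each tested member (points) of 19 gene lists, with the number tested in brackets; red is called higher, blue called lower, grey not called, the thick bar is the list's median and the dotted line the median of all genes, -0.04. Medians run from -4.28 for mitochondrially encoded genes to 3.42 for epithelial adhesion, most lists hold points on both sides, and genes without counts in 1 line are drawn at their fitted value, which is no bound. A median counts scarce and abundant members alike, and the summed CPM of the epithelial adhesion list was not higher in EpH4-AS.

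Among groups that particles are known to engage, NRF2 antioxidant genes were lower in 18 of 29 and higher in 6 (median -0.50). Nqo1, a quinone reductase, was at 181 and 183 CPM in EpH4 and 10.6 and 10.2 CPM in EpH4-AS (log2 -4.13 ± 0.13, adjusted p = 3.27e-13). Slc7a11, the cystine importer, averaged 236 against 35.6 CPM, and Gclm and Gsr, of glutathione synthesis and recycling, 289 against 128 CPM and 94.8 against 35.8 CPM. Hmox1, which degrades heme, went the other way, at 2196 and 1842 CPM in EpH4 and 3069.9 and 3253 CPM in EpH4-AS (log2 0.65 ± 0.08, adjusted p = 1.47e-06), as did Tkt, a transketolase that supplies NADPH metabolism, 205 against 679 CPM (log2 1.73). The transcript of Nfe2l2, which encodes NRF2 itself, averaged 191 against 306 CPM (0.68). Aryl hydrocarbon receptor targets were lower in 7 of 13 and higher in 3. Cyp1b1, an enzyme that oxidises aromatic compounds, was at 12.4 and 13.9 CPM in EpH4 and 1.23 and 0.760 CPM in EpH4-AS (log2 -3.73 ± 0.22, adjusted p = 4.17e-10), and Aldh3a1, an aldehyde dehydrogenase, averaged 306 against 4.54 CPM (-6.08). Cyp1a1, the classical target, was at 1.14 and 0.493 CPM in EpH4 and had 2 counts in EpH4-AS, a ratio in favour of EpH4 of 14.8-fold, with an exact 95% counting interval from 3.84 to 126. The repressor of the receptor, Ahrr, was on the other side at 0.762 and 0.534 CPM in EpH4 and 34.9 and 37.02 CPM in EpH4-AS (log2 5.77 ± 0.15, adjusted p = 4.99e-14), while Ahr itself averaged 47.5 against 28.5 CPM.

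The metallothioneins, which bind zinc and cadmium, were lower. Mt1 was at 357 and 349.7 CPM in EpH4 and 20.1 and 23.02 CPM in EpH4-AS (log2 -4.03 ± 0.07, adjusted p = 7.75e-16), and Mt2 at 735 and 637 CPM in EpH4 and 43.5 and 52.1 CPM in EpH4-AS (log2 -3.84 ± 0.10, adjusted p = 4.57e-14). Of 16 genes of metallothionein and zinc transport 10 were lower and 6 higher. Slc39a8, a zinc and manganese importer, had 2 counts over both EpH4 libraries against 81.7 and 78.8 CPM, a ratio of 2028-fold, with an exact 95% counting interval from 561 to 16751. For iron, 9 of 18 genes were lower and 8 higher. Steap3, an endosomal ferric reductase, averaged 142 against 1.73 CPM (log2 -6.34), and Slc40a1, the iron exporter ferroportin, had 1 count over both EpH4 libraries against 20.2 and 22.3 CPM. Tfrc, the transferrin receptor, was at 86.8 and 99.7 CPM in EpH4 and 78.95 and 70.2 CPM in EpH4-AS (log2 -0.32 ± 0.11, adjusted p = 0.0127), a small difference whose call was lost without exposed replicate 2 of EpH4 (adjusted p = 0.102) or of EpH4-AS (adjusted p = 0.124), and with TMM applied within classes of coding share (adjusted p = 0.0604).

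NF-kB targets were lower in 18 of 30 and higher in 8 (median -1.07). Ptgs2, the inducible cyclooxygenase, was at 1346 and 1459.6 CPM in EpH4 and 175 and 209 CPM in EpH4-AS (log2 -2.87 ± 0.08, adjusted p = 1.14e-13), Cxcl1, a neutrophil chemokine, at 387 and 377 CPM in EpH4 and 127 and 142 CPM in EpH4-AS (log2 -1.51 ± 0.08, adjusted p = 1.06e-10), and Il6 at 10.7 and 14.2 CPM in EpH4 and 0.0584 and 0.434 CPM in EpH4-AS. The chemokine genes Cxcl5 and Cx3cl1 and the adhesion gene Vcam1 averaged 226 against 4.51 CPM, 314 against 15.1 CPM and 88.2 against 5.06 CPM. Nfkbia, the cytoplasmic inhibitor of the pathway, was higher, at 142 and 131 CPM in EpH4 and 497 and 505 CPM in EpH4-AS (log2 1.87 ± 0.05, adjusted p = 1.30e-13), as was Tnfaip3, a ubiquitin-editing inhibitor, 118 against 144 CPM. Icam1, an adhesion molecule, was at 0.0762 and 0.123 CPM in EpH4 and 126 and 128 CPM in EpH4-AS (log2 10.25 ± 0.15, adjusted p = 3.14e-16), and Ccl2, a monocyte chemokine, averaged 15.2 against 70.3 CPM (log2 2.21). Of the secreted members named here, Cxcl1, Cxcl5, Cx3cl1 and Il6 were thus lower in EpH4-AS and Ccl2 higher. Of 23 immediate early genes 14 were higher and 7 lower. Egr1 was at 0.914 and 0.904 CPM in EpH4 and 270.5 and 269 CPM in EpH4-AS (log2 8.203 ± 0.09, adjusted p = 5.35e-17), and Myc and Klf4 averaged 168 against 359 CPM and 63.7 against 171 CPM, while Fosl2 averaged 404 against 118 CPM (-1.77).

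Interferon-stimulated genes were lower in 17 of 28 and higher in 8 (median -0.98). Ifit2, which binds viral RNA, was at 34.6 and 40.1 CPM in EpH4 and 0.642 and 0.706 CPM in EpH4-AS (log2 -5.78 ± 0.19, adjusted p = 3.99e-13). Mx2, of a family of dynamin-like antiviral proteins, went the other way at 0.305 and 0.493 CPM in EpH4 and 27.2 and 24.6 CPM in EpH4-AS (log2 6.01 ± 0.18, adjusted p = 1.83e-13). Mx2 is annotated as a polymorphic pseudogene, so its transcript need not give a working protein. In antigen presentation, B2m, the shared light chain of MHC class I, was at 1987 and 2239.7 CPM in EpH4 and 133 and 144 CPM in EpH4-AS (log2 -3.93 ± 0.08, adjusted p = 5.14e-15). The heavy chains H2-D1 and H2-K1 averaged 2056 against 329 CPM and 485 against 125 CPM (log2 -2.65 and -1.96), and Nlrc5, their transcriptional activator, 39.7 against 3.71 CPM (-3.42). Of the 20 genes of class I presentation 8 were higher and 9 lower. Among peptide-handling genes Erap1, a trimming protease, averaged 33.99 against 266 CPM and the transporter gene Tap2 82.6 against 162 CPM (2.97 and 0.97), while Tapbp, which loads peptides, was lower at 329.7 against 273 CPM (-0.27). Since class I heavy chain genes resemble each other, their counts are uncertain. Of 10 markers of macrophages and leukocytes, 4 could be tested and all 4 were lower. They summed to 195 and 226 CPM in EpH4 and 40.8 and 41.9 CPM in EpH4-AS, nearly all of it Cd68, a lysosomal protein that other cells also make, and their part in the immune genes was not tested.

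Mitotic genes were higher in 20 of 30 and lower in 4 (median 0.63). Plk1, a mitotic kinase, was at 16.002 and 15.6 CPM in EpH4 and 83.2 and 95.8 CPM in EpH4-AS (log2 2.502 ± 0.13, adjusted p = 1.18e-10), Prc1, which bundles the spindle midzone, at 44.8 and 48.5 CPM in EpH4 and 143 and 159.8 CPM in EpH4-AS (log2 1.698 ± 0.15, adjusted p = 3.53e-08), and Cdk1, the kinase that starts mitosis, averaged 33.6 against 97.2 CPM. Mki67, which encodes the proliferation antigen Ki-67, was lower, at 188 and 182 CPM in EpH4 and 86.8 and 87.3 CPM in EpH4-AS (log2 -1.09 ± 0.12, adjusted p = 5.15e-07), and Tpx2, Ccnb1 and the centromeric histone gene Cenpa were the other 3. With the 4 exposed libraries fitted alone, and with TMM applied within classes of coding share, 7 of the 30 were lower. In DNA replication 17 of 33 genes were higher and 12 lower, with Mcm5, a subunit of the replicative helicase, at 47.3 against 144 CPM and Cdt1, which loads it, at 124 against 21.8 CPM (log2 1.604 and -2.500).

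Targets of p53 were lower in 19 of 24 and higher in 3 (median -1.75), and Trp53 itself was at 106 and 106 CPM in EpH4 and 15.5 and 15.6 CPM in EpH4-AS (log2 -2.77 ± 0.07, adjusted p = 2.04e-14). Cdkn1a, which encodes the cell cycle inhibitor p21, was at 707 and 701 CPM in EpH4 and 58.9 and 70.8 CPM in EpH4-AS (log2 -3.44 ± 0.08, adjusted p = 1.02e-14), and Mdm2, the ligase of p53, averaged 289 against 60.7 CPM (-2.25). Ccng1, Zmat3 and Tnfrsf10b, a death receptor, averaged 629 against 58.7 CPM, 272 against 24.4 CPM and 97.7 against 4.94 CPM. The exceptions were Gadd45a, 188 against 421 CPM (1.17), Sesn1 and Plk3. Cdkn2a, the locus of p16 and p19ARF, had no count in exposed EpH4 and 1.75 and 1.52 CPM in EpH4-AS, at least 27.5-fold higher, a low level. Of 20 apoptosis genes 16 were lower and 3 higher, with Bid, a BH3-only protein, at 55.9 against 20.9 CPM.

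Most receptor tyrosine kinases and their ligands were lower. Of 23 receptor tyrosine kinases and ligands 17 were lower and 6 higher, and of 12 EGF ligands and ERBB receptors 8 and 4. Egfr was at 23.7 and 28.4 CPM in EpH4 and 0.584 and 0.651 CPM in EpH4-AS (log2 -5.38 ± 0.21, adjusted p = 3.01e-12), and its ligand genes Areg, Ereg and Hbegf averaged 103 against 24.3 CPM, 98.5 against 13.2 CPM and 122 against 11.4 CPM (log2 -2.08, -2.91 and -3.42). Receptor and 3 of its ligands were therefore lower together. Met, the receptor of hepatocyte growth factor, averaged 200.1 against 115 CPM, and its ligand Hgf was at 0.876 and 1.19 CPM in EpH4 and 51.2 and 44.5 CPM in EpH4-AS (log2 5.53 ± 0.14, adjusted p = 4.16e-14). Among RAS genes, Hras was at 37.6 and 38.2 CPM in EpH4 and 48.6 and 50.9 CPM in EpH4-AS (log2 0.39 ± 0.08, adjusted p = 3.73e-04), and Nras averaged 135 against 89.5 CPM (-0.59, but 0.011 when TMM was applied within classes of coding share). RAS genes and MAPK feedback genes together were lower in 15 of 22 and higher in 6, the ETS factor Etv4 being one of the 6, 75.2 against 252 CPM (1.75). In TGF-beta and BMP signalling 16 of 27 genes were lower and 9 higher, with Tgfb1 at 127 against 207 CPM, Tgfb2 at 17.9 against 0.588 CPM and Inhba, an activin subunit, at 98.1 against 2.06 CPM (log2 0.70, -4.904 and -5.57). Wnt genes were higher in 7 and lower in 9 of 19, and Dkk3, a secreted Dickkopf protein, was at 0.0762 and 0.164 CPM in EpH4 and 116 and 99.01 CPM in EpH4-AS (log2 9.75 ± 0.19, adjusted p = 3.05e-15). In Notch signalling 4 of 11 were higher and 6 lower, with Hes1, a target repressor, at 6.31 against 40.6 CPM and Rbpj, the DNA-binding partner, at 889 against 237 CPM. Among YAP targets 6 of 14 were higher and 8 lower. None of these pathways moved in 1 direction as a whole.

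Mitochondrial and nuclear genes of the respiratory chain differed mostly in opposite directions. All 13 mitochondrially encoded genes were lower, from log2 -5.85 to -1.94, and mt-Co1, a core subunit of complex IV, was at 19542 and 23574 CPM in EpH4 and 1165 and 1326 CPM in EpH4-AS (log2 -4.11 ± 0.11, adjusted p = 8.73e-14). Of 38 nuclear-encoded subunits 25 were higher and 11 lower (median 0.42). Sdha, the flavoprotein of complex II, was at 165 and 173 CPM in EpH4 and 578 and 601 CPM in EpH4-AS (log2 1.81 ± 0.05, adjusted p = 1.38e-13), and Cox5a, a nuclear subunit of complex IV, at 89.3 and 81.3 CPM in EpH4 and 373 and 378 CPM in EpH4-AS (log2 2.14 ± 0.06, adjusted p = 4.62e-14). Genes that copy and transcribe the mitochondrial genome were higher in 14 of 20 and lower in 2, with Polg, the replicative polymerase, at 81.04 against 220.3 CPM and Polrmt, the RNA polymerase, at 28.4 against 42.8 CPM. Ppargc1a, a coactivator of mitochondrial biogenesis, averaged 8.58 CPM in EpH4 with no count in EpH4-AS, at least 102-fold lower.

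Cytosolic ribosomal protein genes were lower in 36 of 48 and higher in 8 (median -0.86). Rpl7 and Rpl7a averaged 1355 against 122 CPM and 1025 against 91.5 CPM (log2 -3.48 and -3.49), and Rps16 was higher, 852 against 1856 CPM (1.12). These genes have many near-identical copies in the genome, so single values are uncertain, and Rpl27rt, a copy of Rpl27, took 24.9% of the reads of the pair in EpH4-AS.

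Glycolysis and hypoxia genes were lower in 18 of 32 and higher in 10. Ldha, the lactate dehydrogenase, was at 2227 and 2059.5 CPM in EpH4 and 249 and 255 CPM in EpH4-AS (log2 -3.09 ± 0.06, adjusted p = 3.61e-15), and Tpi1 and Gapdh averaged 1153 against 268 CPM and 1768 against 671 CPM. The value of Gapdh is uncertain, since it has copies. Reads of Gapdhrt2 were 0.0739% of the reads of the copy and Gapdh together in EpH4 and 4.66% in EpH4-AS. For Gapdhrt the shares were 0.298% and 0.337%. Car9 and Egln3, targets of hypoxia-inducible factor, averaged 244 against 10.7 CPM and 446 against 13.3 CPM (log2 -4.500 and -5.06), whereas Vegfa, another target, was at 951 and 802 CPM in EpH4 and 1333 and 1284 CPM in EpH4-AS (log2 0.58 ± 0.08, adjusted p = 4.42e-06) and Pfkfb3, an activator of glycolysis, averaged 24.9 against 224 CPM (3.16). The hypoxia targets named here were therefore split. Heat shock genes were higher in 6 of 14 and lower in 7. Hspb1, a small heat shock protein, was at 2.55 and 1.64 CPM in EpH4 and 133 and 135 CPM in EpH4-AS (log2 5.99 ± 0.11, adjusted p = 1.36e-15), and Cryab, another, averaged 80.6 against 5.39 CPM (-3.899).

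The last question was whether the gap between the lines differed between exposed and untreated spheroids. Across genes the line difference with PM2.5 and the one without, which share no library, correlated with Pearson's r 0.96 and Spearman's rho 0.977 (13716 genes, which are not independent replicates). A test of the change itself, the log2 gap with PM2.5 minus the log2 gap without, called 1932 genes (14.1% of genes tested), 1042 with a more positive and 890 with a more negative gap (7.60% and 6.49%). With library totals in place of TMM the split was 838 and 1100. A gap of the opposite sign was found for 302 of the called genes, and for 92 of these both line differences were themselves called. The other called genes had a narrower gap with PM2.5 in 1075 cases and a wider one in 555. The count fell to 66 against a 1.5-fold change, and to 875 and 884 without untreated EpH4-AS replicate 1 or 2. It was 1141 without exposed EpH4-AS replicate 1 and 1246 without replicate 2.

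Among the lists, mitotic genes showed the change most widely, 29 of 30 having a more negative gap with PM2.5, and the list's median line difference was 1.87 without and 0.63 with PM2.5. Mki67 averaged 77.6 against 80.8 CPM in untreated EpH4 and EpH4-AS and 185 against 87.1 CPM in the exposed lines, a gap change of -1.14 ± 0.17, adjusted p = 6.21e-04. Top2a, a topoisomerase of dividing cells, averaged 75.2 against 253 CPM untreated and 163 against 244 CPM exposed (-1.16). In both genes the mean of EpH4 stood higher with PM2.5 than without, while the mean of EpH4-AS was nearly the same in both, and these differences within a line were not tested here. Ribosomal protein genes moved the other way, 42 of 48 with a more positive gap and medians of -1.32 and -0.86. Of 25 ATF4 targets 18 had a more positive gap and 1 a more negative one. Asns, which makes asparagine, averaged 336 against 138 CPM untreated and 274 against 181 CPM exposed (0.69), and Mthfd2, a mitochondrial folate enzyme, 129 against 129 CPM and 110.1 against 191 CPM (0.79).

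In the unfolded protein response 16 of 22 genes had a more positive gap and none a more negative one. Hspa5 averaged 4725 against 8996 CPM untreated and 3659 against 11630.2 CPM exposed, a gap change of 0.74 ± 0.13, adjusted p = 0.00203, and that of Calr was 0.52 ± 0.09, adjusted p = 0.00231. For Hsp90b1 the change was 0.34 and was not called, but it was 0.46 without exposed EpH4 replicate 1 (adjusted p = 0.00943) and 0.37 without untreated EpH4 replicate 1 (adjusted p = 0.0291). NF-kB targets had a more positive gap in 14 of 30 and a more negative one in 1. Cxcl1 averaged 230.1 against 20.1 CPM untreated and 382 against 134 CPM exposed (2.01 ± 0.13, adjusted p = 8.40e-07), and Nfkbia 89.01 against 183 CPM and 137 against 501 CPM (0.84 ± 0.08, adjusted p = 3.08e-05). Cxcl1 stayed lower in EpH4-AS and came closer to EpH4, while Nfkbia was higher in EpH4-AS and moved further away. Ier3, an early response gene, was at 618 against 157 CPM untreated and 585 against 534 CPM exposed, which nearly closed the gap (1.85).

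Collagens had a more negative gap in 9 of 18 genes and a more positive one in none. Among single genes, Lox went from 1419.6 against 228 CPM untreated to 1892 against 73.3 CPM exposed, a gap change of -2.05 ± 0.09, adjusted p = 1.53e-08. Plod1, a lysyl hydroxylase of collagen, averaged 574 against 599 CPM untreated and 301 against 689.8 CPM exposed (1.14), so that a gap near 0 opened in the exposed lines. The gap of Mmp9 widened from log2 0.98 to 1.83. Itgb4, the integrin beta 4 of hemidesmosomes, was higher in EpH4-AS untreated, 13.6 against 39.2 CPM, and lower with PM2.5, 63.8 against 36.7 CPM (-2.32 ± 0.10, adjusted p = 1.31e-08). Jag1, a Notch ligand, and Irf1, an interferon-regulated transcription factor, moved the other way, from log2 -0.32 and -0.30 to 0.87 and 0.75. Sqstm1, the autophagy receptor p62, narrowed from -2.69 to -1.73, and H2bc4, one of several similar histone genes and so uncertain, from 4.11 to 1.38. Tfrc changed from 257 against 371 CPM to 93.3 against 74.6 CPM (-0.85).

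**Figure D5:**
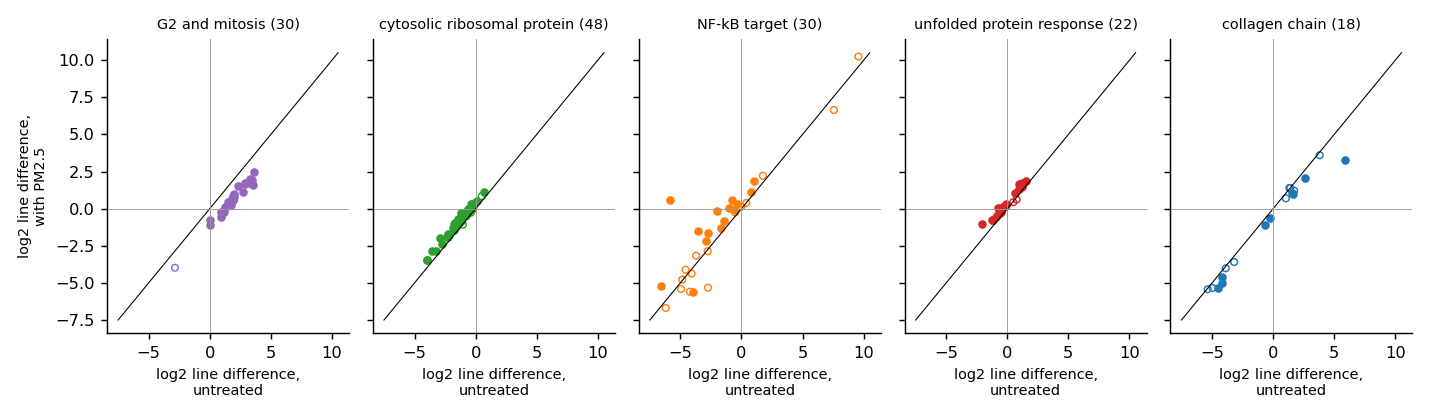
Log2 line difference, EpH4-AS over EpH4, in untreated spheroids (x axis) and with PM2.5 (y axis) for each tested member of 5 gene lists (number in brackets); filled points passed the test of the change, and the line marks an equal gap. 29 of 30 mitotic genes lie below the line as filled points, 42 of 48 ribosomal protein genes and 16 of 22 unfolded protein response genes above it.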

How the data were processed

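RNA of 8 libraries of 2 mouse lines, untreated or exposed to PM2.5, was analysed, 2 libraries a group, of which the 4 exposed ones make the comparison. Per the labels, polyadenylated RNA was sequenced from a stranded kit. The authors deposited a table of gene read counts, a table of the same counts with RPKM values, and a table for each library with RPKM and total reads per gene, introns included, and the files' coordinates are those of GRCm39, per the submitters' processing notes. Which aligner and which counting tool were used is not given in the sources used here. Columns were assigned to libraries by their names.

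From the deposited counts, genes with enough reads by filterByExpr were scaled with TMM and fitted with edgeR 4.0.16 (R 4.3.3) over 4 groups with 1 quasi-likelihood dispersion fit. EpH4-AS was contrasted with EpH4 under PM2.5, and that gap with the gap in untreated spheroids. Adjusted p values are Benjamini-Hochberg over all 13716 tested genes, the threshold is 0.05, and the standard error is the log2 fold change divided by the root of F. The authors' RPKM values were used for levels between genes and in limma-trend (limma 3.58.1, pseudocount 1), and their total gene reads only for the share outside exons. DESeq2 1.42.0, other scalings, filters and left-out libraries were tried as alternatives. A gene at 0 in a group was set to 3 counts over that group for a lower bound, and ratios on 1 to 3 counts carry an exact 95% interval that covers counting error only. On simulated counts for this comparison (12438 genes), 71.6, 92.5 and 97.0% of genes changed 1.5-, 2- and 4-fold were recovered. Of 181 calls, 7 were false. These calls were few beside the 12211 of 13716 genes called between the exposed lines. Recovery and false calls with so large a share of genes called were not tested.

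Promoter windows came from RefSeq (GRCm38.p6), and gene types and coding shares from a GENCODE annotation of GRCm38, matched by gene identifier and used for no coordinates. The comparison and the gene lists were chosen with earlier results of these data known. Genes were named by a rule on the largest log2 differences, the largest differences in CPM, the highest RPKM, up to 6 abundant members of each list with up to 2 that ran against its majority, the smallest p values of the gap change, and 24 genes always named. These further genes were picked after their values were seen: Ahr, Asns, Bid, Brca1, Car9, Ccl2, Ccn2, Ccnb1, Cdh2, Cdh3, Cdt1, Cenpa, Cited1, Col4a2, Col5a2, Col6a2, Creld2, Cryab, Cx3cl1, Cxcl5, Dnajb9, Dnajc3, Edem1, Egfr, Egln3, Egr1, Erap1, Ern1, Gclm, Gsr, Hgf, Hoxc11, Hspb1, Icam1, Ifit2, Inhba, Jup, Klf4, Ldha, Loxl1, Mcm5, Mmp12, Mmp2, Mx2, Myl9, Nf2, Nlrc5, Pdia4, Pfkfb3, Pkp2, Pkp3, Plk1, Plk3, Polrmt, Rbl2, Rpl27rt, Rpl7, Rpl7a, Slc39a8, Slc40a1, Slc7a11, Snai1, Snai2, St14, Steap3, Syvn1, Tap2, Tapbp, Tgfb2, Timp3, Tnfaip3, Tnfrsf10b, Tpi1, Twist2, Vcam1, Xbp1, mt-Nd1 and mt-Nd4l.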

Additional observations from a re-analysis of the deposited data

Results flagged for a closer look

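Of the 241 genes named in the text, 84 had a line difference that changed between untreated and exposed spheroids by the edgeR quasi-likelihood test of that change (adjusted p under 0.05), 42 to a more positive and 42 to a more negative gap, beside 14.1% of all tested genes. Values are the log2 gap with PM2.5 minus the log2 gap without, from 2 libraries in each of 4 groups. Genes were named partly because of this change, so the count is a description. Among genes of the unfolded protein response the change was 0.28 for Atf6, 0.34 for Sel1l, 0.35 for Hyou1, 0.36 for Syvn1, 0.37 for Canx, 0.37 for Pdia3, 0.37 for Pdia6, 0.40 for Xbp1, 0.52 for Calr, 0.55 for Dnajc3, 0.74 for Hspa5 and 1.01 for Dnajb9. Mitotic genes changed by -1.52 for Ccnb1, -1.38 for Prc1, -1.16 for Top2a, -1.14 for Mki67, -1.14 for Plk1, -0.80 for Tpx2 and -0.74 for Cdk1. In ribosomal protein genes, whose single values are uncertain, it was 0.43 for Rps16, 0.48 for Rpl7a and 0.50 for Rpl7. ATF4 targets gave 0.69 for Asns and 0.79 for Mthfd2. For collagen chains the values were -0.87 for Col6a3, -0.85 for Col4a2, -0.68 for Col5a2, -0.54 for Col5a1 and -0.38 for Col4a1. NF-kB targets changed by -1.66 for Cxcl5, 0.66 for Tnfaip3, 0.84 for Nfkbia, 1.40 for Lcn2, 1.85 for Ier3 and 2.01 for Cxcl1. Targets of p53 gave -0.57 for Mdm2, -0.55 for Ccng1, -0.50 for Zmat3, 0.43 for Sesn1 and 1.13 for Gadd45a. In MHC class I presentation the change was 0.37 for H2-D1 and 0.41 for B2m. Integrin and laminin genes changed by -2.32 for Itgb4, -0.67 for Lama5, -0.39 for Lamb1 and -0.29 for Lamc1. Matrix proteases and their inhibitors gave -0.67 for Timp2, -0.55 for Timp1 and 0.85 for Mmp9. Lipid synthesis genes changed by -0.62 for Fasn and -0.42 for Acly. Mitochondrially encoded genes changed by -0.90 for mt-Nd1 and -0.48 for mt-Co1. Mesenchymal genes changed by -2.05 for Lox, -0.38 for Sparc and -0.32 for Fn1. Antioxidant genes gave 0.28 for Tkt, 0.37 for Ftl1 and 0.96 for Sqstm1. In tumour suppressors it was -0.63 for Brca1 and 0.34 for Trp53.

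Other genes with a more negative gap were at -2.73 for H2bc4, -0.96 for Egr1, -0.85 for Tfrc, -0.77 for Nes, -0.77 for Met, -0.64 for Mcm5, -0.60 for Snai1 and -0.56 for Ahr. Further more negative changes were -0.51 for Fosl2, -0.47 for Dcn, -0.31 for Etv4 and -0.31 for Igf2r. Other genes with a more positive gap were at 0.31 for Ldha, 0.41 for Klf5, 0.56 for Ereg, 0.59 for Eef1a1, 0.69 for Mt2, 0.71 for Ero1a, 0.74 for Rbpj and 1.05 for Irf1. Further more positive changes were 1.14 for Plod1, 1.18 for Jag1 and 1.52 for Pparg. Groups of 2 libraries allowed no search for single outlying samples.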

How the results depend on the processing

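The count of genes called between the exposed lines lay between 11376 and 13113 over the alternative scalings, filters, fits and tests, with the exception of 8905 against a 1.5-fold change. The number called and over 2-fold was 4863 by limma-trend on log2(RPKM + 1), 2685 higher and 2178 lower. Leaving out 1 exposed library gave 11837 to 12038 calls and 7302 to 7602 over 2-fold. The change of the gap was called for 66 genes against a 1.5-fold change, for 1317 by DESeq2, and for 875 to 2621 when 1 of the 8 libraries was left out, the lone library of a group being assumed to vary like the others. With library totals the gap calls split into 838 more positive and 1100 more negative, and without mitochondrially encoded genes into 1180 and 792, beside 1042 and 890. TMM within 10 classes of coding share, added after seeing the data, gave 11840, 6835 and 1943 calls for the 3 counts and turned the sign of Atf6 to 0.17, of Nras to 0.011 and of Prrx1 to 0.046, of 231 genes with a line difference in the text. Thinning the EpH4 libraries to the depth of the exposed EpH4-AS libraries, also added, gave 11933 and 7169. For other changes of call, such as the 23 of these 231 genes that did not pass the test against a 1.5-fold change, the cause was not tested. Gap changes of 19 named genes were followed in the same way, and 9 of them were not called against a 1.5-fold change. Mki67, Top2a, Hspa5, Calr and Nfkbia were among those 9. The replicate numbers share only a number: deviations of same-numbered exposed libraries correlated at 0.0323, and all pairs of groups at -0.101 to 0.0646. With the replicate number as a block, 12118 genes were called, 7384 of them over 2-fold, and 1580 for the gap. Totals of 17131588 to 26457809 counts limit statements on genes near 0, and 2 libraries a group limit those on small differences.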

Other observations

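Genes that restrain growth were split. Of 20 tested CDK inhibitors and tumour suppressors, 8 were higher and 10 lower in EpH4-AS with PM2.5, with a median of -0.08. Nf2, which encodes merlin, was at 167 and 174 CPM in EpH4 and 62.6 and 64.9 CPM in EpH4-AS (log2 -1.42 ± 0.06, adjusted p = 6.85e-12). Its libraries did not overlap between the lines, which held for 94.3% of all tested genes. On the other side Brca1, of DNA repair, averaged 29.3 against 106 CPM and Rbl2, a relative of the retinoblastoma protein, 49.3 against 148 CPM (log2 1.86 and 1.59). Among imprinted genes, expressed from 1 parental copy, 6 of 16 in the table could be tested, and 4 were higher and 1 lower. Igf2r, the clearance receptor of IGF2, was at 158 and 174 CPM in EpH4 and 428 and 405 CPM in EpH4-AS (log2 1.33 ± 0.06, adjusted p = 1.88e-11), and Snrpn, of the spliceosome, at 8.69 and 8.26 CPM in EpH4 and 0.467 and 0.326 CPM in EpH4-AS (log2 -4.41 ± 0.23, adjusted p = 9.70e-11).

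The median line difference with PM2.5 varied between chromosomes. It was -0.61 over 694 tested genes of chromosome 3, of which 202 were higher and 418 lower in EpH4-AS, beside -0.04 over all tested genes. Genes of chromosome X had a median of 0.53, with 258 of 453 higher, those of chromosome 9 a median of 0.35, with 432 of 795 higher, and those of chromosome 16 a median of 0.33, with 212 of 401 higher. The other autosomes lay between -0.26 and 0.27. Neighbouring genes are not independent, no test was made over chromosomes, and copy number was not measured here.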
